A study of Mus musculus with 9 samples.

Results

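Kidney cells of mouse embryos with Tsc1 targeted in the nephron lineage were compared with cells of control kidneys of the same stage, both after vehicle, over 19656 genes. The genes are those whose normalized count averaged 5 or more over the 9 libraries of the study, out of 48586 genes with a raw count. The 3 mutant libraries came from CD1 embryos with a Six2 Cre transgene and floxed Tsc1 on both chromosomes (Six2 Cre Tsc1 fl/fl). The 3 control libraries came from CD1 embryos that were Tsc1 fl/fl without Cre, although their titles call them wild type. Dams of both groups were injected with vehicle (DMSO) every other day between E12.5 and E16.5, and the kidneys were collected at E18.5. Cells were freed with collagenase and dispase, sorted for CD133 (prominin-1, gene Prom1), and labelled proximal tubule cells. Another 3 mutant libraries, from embryos exposed to rapamycin at 0.2 mg/kg, entered the fit only to estimate the spread. Every mutant library carried the Cre transgene and no control library did, so the effect of the transgene and that of losing Tsc1 cannot be told apart. The labels tell replicates apart by number alone, so p-values reflect how much these libraries vary, and that variation may be technical in part.

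Tsc1 (hamartin) and Tsc2 (tuberin) form a complex that switches off the small GTPase Rheb and so holds back mTORC1, a kinase complex that drives protein synthesis and growth and represses lysosome formation. Six2 is the transcription factor that keeps nephron progenitors undifferentiated, and Six2 Cre recombines floxed genes in those progenitors and in the podocytes, proximal tubule, loop of Henle and distal tubule that descend from them. The collecting duct, with its principal and intercalated cells, grows mainly from the ureteric bud, a separate lineage.

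Libraries held 23372093 to 32669791 counts. Reads on Gm42418 and AY036118, genes that overlap ribosomal RNA, took 5.23% of control 1 and 0.439% to 1.44% of the other vehicle libraries. Counts of Y-linked genes were 14 in control 1 and 1168 to 2650 in the other vehicle libraries, so male cells were nearly missing from control 1. The sorted cells held proximal tubule RNA, with Lrp2 (megalin) at 12586 to 15678 normalized counts in the mutants and 7607 to 12076 in the controls. Cubn (cubilin) leaned the other way, at 1174 to 1294 in the mutants and 1196 to 1912 in the controls. Neither passed the test (limma adjusted p = 0.557 for Lrp2 and 0.692 for Cubn). The sorted cells also held much RNA of other cells, such as Col1a1 of stroma at 30665 to 32082 in the mutants and 34579 to 37914 in the controls, and Csf1r of macrophages at 4133 to 9204 in the mutants and 4182 to 5741 in the controls. In such a mixture, fewer cells of a type and less RNA per cell cannot be told apart. The targeted gene Tsc1 had 1569.9, 1747 and 1624 normalized counts in the mutants, against 2041, 1744 and 1439.5 in the controls (log2 fold change -0.07 ± 0.13 SE, limma adjusted p = 0.962). The sources used here do not say which exons were floxed, so these counts do not check the deletion.

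Of the 19656 genes, 279 passed the test (limma, Benjamini-Hochberg adjusted p under 0.05), which is 1.42%. In the mutants 207 were higher (1.05% of genes tested) and 72 were lower (0.366%). In each of these 279 genes the 3 mutant and 3 control libraries did not overlap, which was so for 13.3% of all genes tested. A change of at least 2-fold was seen in 198 of them, 140 higher and 58 lower. Over all genes the median log2 fold change was -0.0055, and 1990 of the 19656 had an unadjusted p under 0.05 by limma. Leaving out 1 library at a time gave between 81 calls (without mutant 2) and 337 (without mutant 1), and omitting control 2 left 98, control 3 left 168, mutant 3 left 139 and rapamycin 3 left 174. The same-numbered vehicle libraries varied together, and with the replicate number as a block in these groups 867 of the 19656 genes were called. List counts below stand beside 1.42% of all genes called, and replicate block counts beside those 867. In all 9 fits that left out 1 library 74 genes kept their calls, 61 higher and 13 lower, and such calls are termed stable below. Protein-coding genes made up 192 of the rises and 70 of the falls. Among genes with a mean of 5 to 50 normalized counts, 38 rose and 18 fell, with a median absolute change of 2.52 on the log2 scale. Most of the 9 libraries averaged for the minimum of 5 were mutant. A low gene raised in the mutants could therefore pass it more easily than one lowered in them. Of the 1019 genes with a mean over 5000 normalized counts, 5 rose and 0 fell.

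**Figure D1:**
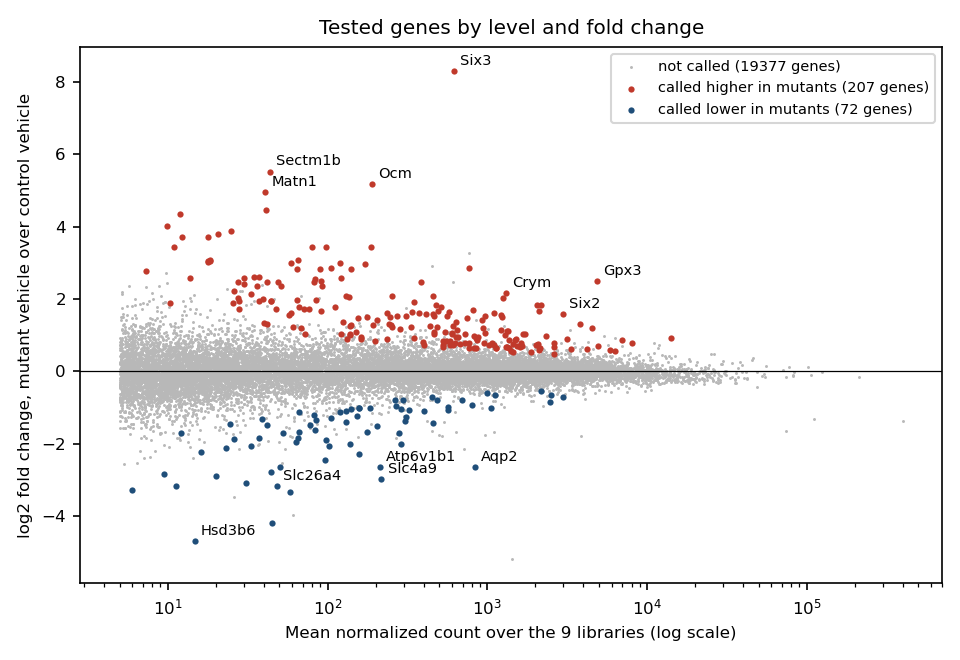
Each point is 1 of the 19656 genes tested, with its mean normalized count over the 9 libraries on a log axis and the log2 fold change of mutant vehicle over control vehicle libraries on the vertical axis. Red points are the 207 genes called higher in the mutants and blue points the 72 called lower. Six3 stands alone at a log2 fold change of 8.29.

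The largest change lay on chromosome 17, where 6 neighbouring genes around Six3 and Six2 were all higher in the mutants. Six3, a homeobox transcription factor of forebrain and eye development (GRCm38 chromosome 17, 85613608 to 85629302), had 879.6, 913 and 875 normalized counts in the mutants, against 2.2, 0.898 and 2.76 in the controls. All 3 mutant libraries lay within a narrow band, while the controls were close to 0. Its log2 fold change was 8.29 ± 0.25 (SE, 3 libraries a group, adjusted p = 3.83e-08 by limma), from 2579 raw counts in the mutants and 6 in the controls. Six2 (chromosome 17, 85684277 to 85688274) had 2817, 3737 and 3511 normalized counts in the mutants, against 1099, 1056 and 1172 in the controls. The groups did not overlap, and the log2 fold change was 1.59 ± 0.13 (adjusted p = 0.000211).

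Between and around them, 4 noncoding genes were also higher. AC166821.1, a long intergenic RNA that starts 5.36 kb from the Six2 start, had 902, 1230.0 and 752 normalized counts in the mutants, against 191, 109 and 107 in the controls (log2 fold change 2.84 ± 0.25, adjusted p = 0.000269). Gm28528, annotated as antisense in the Six3 region, had 61 raw counts in the mutants and 0 in the controls. The ratio is 21.8 if the control group is set to a floor of 3 counts, and its exact 95% counting interval starts at 17.2. Six3os1 rose by 4.45 ± 0.36 (adjusted p = 0.000204). Six3os1 and Gm28528 overlap Six3 on the other strand, and since it is not given whether counting used strand, their reads may not be separated from those of Six3. Gm29418, the outermost of the 6, rose by 1.96 ± 0.41 (adjusted p = 0.0465) but lost its call whichever library was omitted except control 1 or mutant 1, with adjusted p reaching 0.227. The 6 called genes span 223 kb of chromosome 17 (85600651 to 85824044), and no other gene tested starts in that span. Outside it, Camkmt (-0.26 ± 0.16, adjusted p = 0.686) and Prepl (-0.01 ± 0.14, adjusted p = 0.995) on one side and Srbd1 (-0.07 ± 0.13, adjusted p = 0.952) on the other did not pass the test. Which construct carried the Six2 Cre is not given in the sources used here, and its part in these counts was not tested. AC151289.1, 240.3 kb from the Six2 start, had 19 raw counts in the mutants and 3 in the controls (adjusted p = 0.115). Beyond Prepl and outside the 600 kb drawn below, Slc3a1 had 286, 350 and 403 normalized counts in the mutants. Its controls had 150, 221 and 202 (0.86 ± 0.19, adjusted p = 0.0589 by limma).

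**Figure D2:**
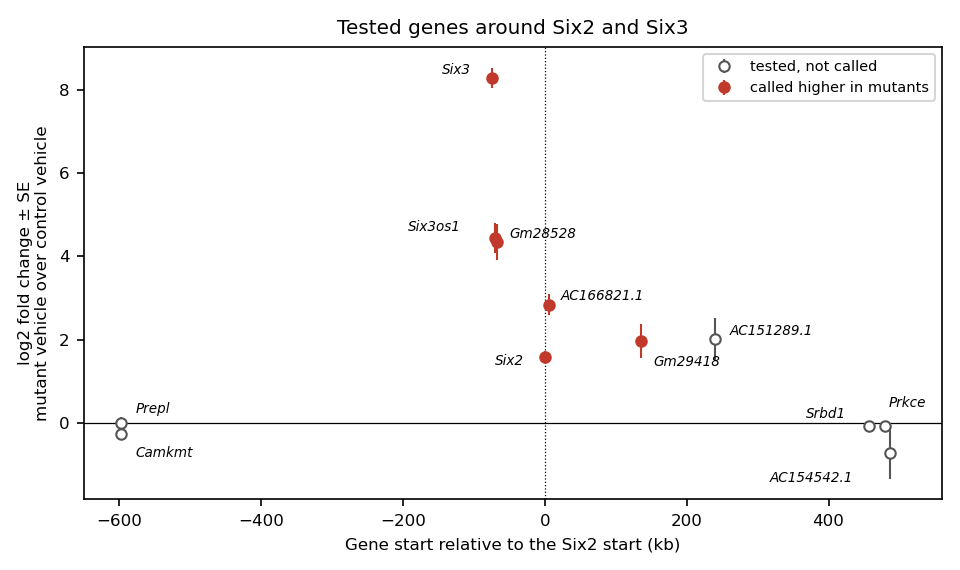
Log2 fold change with its SE (vertical axis) for each gene tested within 600 kb of Six2, by the distance of its start from the Six2 start in kb (horizontal axis). Filled red points, called higher in the mutants, are Six3, Six3os1, Gm28528, Six2, AC166821.1 and Gm29418. Open points, not called, are the flanking genes, which lie near 0 except AC151289.1 and AC154542.1.

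The 250 bases before the Six3 and Six2 starts are shown because these promoters mark the 2 protein-coding genes of the span (RefSeq, GRCm38.p6, 5′ to 3′, Six3 at chr17:85620584-85620833, plus strand, Six2 at chr17:85688255-85688504, minus strand).
Six3: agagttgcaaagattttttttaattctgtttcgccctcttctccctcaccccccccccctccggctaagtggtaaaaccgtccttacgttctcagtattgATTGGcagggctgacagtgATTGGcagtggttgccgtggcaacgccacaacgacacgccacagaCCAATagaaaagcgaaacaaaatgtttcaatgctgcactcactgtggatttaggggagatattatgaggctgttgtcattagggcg
Six2: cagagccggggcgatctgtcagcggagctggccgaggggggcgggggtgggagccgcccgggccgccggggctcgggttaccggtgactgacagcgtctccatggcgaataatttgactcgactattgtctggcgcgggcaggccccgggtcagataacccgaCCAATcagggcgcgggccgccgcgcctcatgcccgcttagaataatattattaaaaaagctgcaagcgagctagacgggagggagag
The RefSeq start of Six3 lies within the gene as counted here. Capitals mark CCAAT on either strand, a motif bound by the general factor NF-Y. It occurs 3 times before Six3 and 1 time before Six2, and 33.8% of all 32851 promoter windows of this length hold it. The nearest match begins 86 bases before the Six3 start and 87 bases before the Six2 start.

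Nephron progenitor genes moved in both directions. Of 19 tested, 4 rose and 1 fell, with a median log2 fold change of 0.17. Eya1, a phosphatase and transcriptional partner of Six2 and its relatives, had 2479, 3299.8 and 2597 normalized counts in the mutants, against 886, 994 and 759 in the controls. It rose by 1.66 ± 0.15 (adjusted p = 0.000269), with every mutant library above every control. Crym, a thyroid hormone binding protein, had 1371, 1664 and 1502 normalized counts in the mutants, against 376, 272 and 378 in the controls. Its rise of 2.15 ± 0.17 (adjusted p = 0.000174) was also stable. Osr1, an early kidney mesoderm factor, rose by 1.30 ± 0.21 but lost its call when control 2 or mutant 2 was omitted, with adjusted p reaching 0.0709. Meox2, a homeobox gene of progenitors and mesenchyme, was the member that fell, with 36.3, 26.7 and 26.8 normalized counts in the mutants, against 144, 119 and 93.7 in the controls (fell by 1.95 ± 0.26, adjusted p = 0.00343). Cited1 and Meox1, which mark the uninduced progenitor, had log2 fold changes of 0.65 ± 0.22 (adjusted p = 0.266, and 0.0467 with the replicate block) and 0.13 ± 0.23 (adjusted p = 0.957). The progenitor count of 5 was 8 under the replicate block.

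Genes of the committed nephron, which switch on as progenitors epithelialise, gave 1 fall and 0 rises among 20, with a median of -0.35 and 16 members below 0. The member that fell was Dkk1, a secreted Wnt inhibitor (-1.01 ± 0.19, adjusted p = 0.0271), and it lost its call when control 1, control 2, mutant 2 or mutant 3 was omitted, with adjusted p reaching 0.15. The count of 1 was 0 omitting control 2, mutant 2 or mutant 3, 2 omitting control 1 or mutant 1 and 4 under the replicate block. Of 35 Wnt pathway genes, 1 rose and 3 fell (Dkk1, Dkk2 and Wnt9b). Apcdd1, a membrane inhibitor of Wnt signalling, rose by 0.89 ± 0.16 (adjusted p = 0.0215, lost when control 2, control 3 or mutant 2 was omitted, with adjusted p reaching 0.132), and Dkk2 fell by 1.43 ± 0.24 (adjusted p = 0.0176, lost when control 2, mutant 2 or mutant 3 was omitted, with adjusted p reaching 0.105). The Wnt count of 4 was 0 omitting control 2 or mutant 2, 1 omitting mutant 3 and 2 omitting control 3. Among 20 fibroblast growth factor genes, 2 rose and 0 fell. Fgf20, a ligand that keeps nephron progenitors alive in the mouse, had 82.6, 96.1 and 72.5 normalized counts in the mutants, against 27.5, 26 and 20.2 in the controls and rose by 1.73 ± 0.24 (adjusted p = 0.00473). Fgf1 rose by 2.08 ± 0.44 (adjusted p = 0.0473) and lost its call whichever library was omitted except rapamycin 1, with adjusted p reaching 0.237. The count of 2 for this pathway was 1 omitting any library but control 1 or rapamycin 1 and 4 under the replicate block.

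A run of the HoxC cluster was higher in the mutants. Hox genes encode homeodomain factors that set position along the body axis, and those of the 11 group direct kidney formation. A run on chromosome 15, from 102966796 to 103167092, had its ends set by called genes and held 11 genes tested. Of these, 7 rose, a share that the choice of ends favours. They were Hoxc10, Hoxc5, Hoxc6, Hoxc4, the predicted genes Gm28876 and Gm10830, and Smug1, a uracil DNA glycosylase next to the cluster. Hoxc4 had 1230.3, 2018 and 1765 normalized counts in the mutants, against 518, 649 and 574 in the controls and rose by 1.50 ± 0.19 (adjusted p = 0.00274), a stable call. Hoxc6 rose by 1.11 ± 0.20 (adjusted p = 0.0205), Hoxc5 by 1.08 ± 0.20 (0.0246) and Hoxc10 by 0.73 ± 0.11 (0.00702). Those calls were lost when control 2, control 3 or mutant 2 was omitted, with adjusted p reaching 0.123, when control 2, control 3, mutant 2, mutant 3 or rapamycin 1 was omitted, with adjusted p reaching 0.141 and when mutant 2 was omitted, with adjusted p at 0.0615, in that order. Genes of the cluster lie close together and overlap in part, so their counts are not independent. From the HoxD cluster, Hoxd12 rose by 1.49 ± 0.19 (adjusted p = 0.00335), with 256, 278 and 259 normalized counts in the mutants, against 73.7, 103 and 107 in the controls. Over all 34 Hox genes tested, a list made after these values were seen, 5 rose and 0 fell, and the median was 0.18. The count of 5 was 2 omitting mutant 2, 3 omitting control 2 or control 3 and 8 under the replicate block. Hoxa11 (0.13 ± 0.13, adjusted p = 0.87) and Hoxd11 (0.40 ± 0.15, adjusted p = 0.313, and 0.0244 with the replicate block) did not pass the test.

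Several hair cell genes rose. Ocm, the calcium-binding oncomodulin of sensory hair cells, had 234, 439 and 262 normalized counts in the mutants, against 8.8, 3.59 and 11.9 in the controls (log2 fold change 5.17 ± 0.39, adjusted p = 0.000148). Myo15, a myosin of hair cell stereocilia, had 145, 466 and 374 normalized counts in the mutants, against 25.3, 26 and 26.6 in the controls (3.45 ± 0.37, adjusted p = 0.00076). Pdzd7, a scaffold of the ankle links of hair bundles, had 131, 216 and 171 normalized counts in the mutants, against 25.3, 34.1 and 12.9 in the controls (2.86 ± 0.34, adjusted p = 0.00186). No mutant library of these 3 genes fell within the range of the controls. Adgrv1, the receptor that forms the ankle links, rose by 1.52 ± 0.26 (adjusted p = 0.0161, lost when control 2 or mutant 2 was omitted, with adjusted p reaching 0.108). Of 28 hair bundle genes, a list made after these rises were seen, 16 reached the level for testing. Among those 16, the 4 genes above rose and 0 fell, with a median of 0.28. Myo7a and Cdh23, defining parts of the bundle, had log2 fold changes of 0.58 ± 0.19 (adjusted p = 0.252) and -0.25 ± 0.34 (adjusted p = 0.924).

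Several genes known from skeletal muscle also rose. Atp2a1, the calcium pump of fast fibres, had 177, 155 and 95.9 normalized counts in the mutants, against 16.51, 22.4 and 17.5 in the controls (2.83 ± 0.28, adjusted p = 0.000505). Trim63, the ubiquitin ligase MuRF1, had 135, 129.7 and 127 normalized counts in the mutants, against 17.6, 26 and 21.1 in the controls (2.56 ± 0.22, adjusted p = 0.000252). Actn3, the fast-fibre alpha-actinin, had 489, 555 and 401 normalized counts in the mutants, against 93.5, 78.1 and 83.6 in the controls (2.48 ± 0.21, adjusted p = 0.000227). In each, all mutant libraries were several times above all controls. Mybpc1, a myosin-binding protein of slow fibres (2.96 ± 0.24), Colq, the collagen tail of acetylcholinesterase (1.77 ± 0.25), and Dtna, dystrobrevin (1.41 ± 0.18), were stable rises as well. The contractile genes that define muscle were low. Myh3 lay at 1.98 to 5.04 normalized counts in the mutants and 1.1 to 9.19 in the controls, and Acta1 at 2.02 to 5.94 in the mutants and 5.39 to 10.1 in the controls. Of 36 contractile genes, 18 reached the level for testing, of which 2 rose (Mybpc1 and Actn3) and 0 fell. Among 22 genes of muscle membrane and calcium handling, a list made after the rises were seen, 6 rose and 0 fell. The 7 tested muscle regulators gave 0 rises and 1 fall (Msc, -1.88 ± 0.37, lost whichever library was omitted except control 1, rapamycin 1 or rapamycin 2, with adjusted p reaching 0.163), with a median of -0.02.

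Further stable rises started from control levels near 0. Sectm1b, a secreted and transmembrane protein, had 68.5, 80.2 and 193 normalized counts in the mutants, against 1.1, 0.898 and 1.84 in the controls (5.52 ± 0.44, adjusted p = 0.000174). Matn1, a cartilage matrix protein, had 171 raw counts in the mutants and 3 in the controls, a ratio of 61.2 (exact 95% counting interval 20.6 to 299.6, which covers counting error only). Srd5a2, a steroid 5-alpha reductase, had 58 raw counts in the mutants and 1 in the controls, a ratio of 62.3 (10.7 to 2501). Of 18 cartilage and bone genes, 3 rose (Matn1, Spp1 and Col9a1) and 0 fell, with a median of -0.01, and the count was 5 under the replicate block. Several encode signalling proteins. Npy4r, the receptor of pancreatic polypeptide, rose by 3.89 ± 0.43. Adcy8, a calcium-stimulated adenylyl cyclase, rose by 3.01 ± 0.23, and Gfra3, the receptor of artemin, by 2.57 ± 0.38. The dynein chain Dync1i1 rose by 3.43 ± 0.30, the calcium sensor Scgn by 3.04 ± 0.33 and C2cd4a by 2.98 ± 0.43. Neuron-defining Tubb3 was at 3.96 to 9.07 normalized counts in the mutants and 9.88 to 18.7 in the controls. Of 18 neuronal genes, 1 rose (Dcx, 1.67 ± 0.23) and 0 fell, and the median was 0.05. The neuronal count of 1 was 2 omitting control 2 and 2 under the replicate block.

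**Figure D3:**
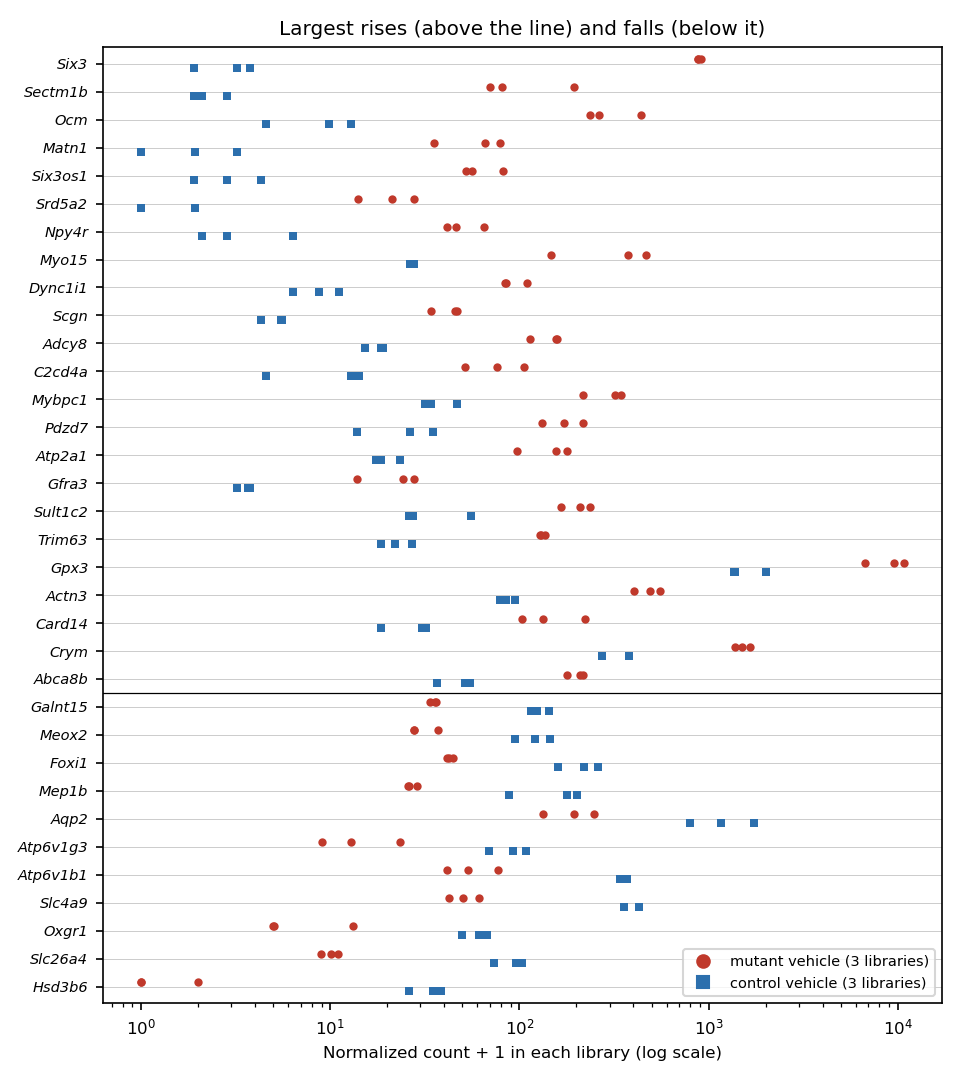
Normalized count plus 1 (log axis) in each library for the largest stable rises, above the line, and the 11 stable falls, below it, with predicted genes and those not reported here left out. Red circles are the 3 mutant vehicle libraries and blue squares the 3 control vehicle libraries. Lack of overlap between the groups was a condition for showing a gene here. The controls of Six3, Sectm1b, Matn1 and Srd5a2 lie below 4 on this axis.

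Intercalated cell genes fell together in the mutants. These cells of the collecting duct and connecting tubule secrete acid or bicarbonate, and Foxi1 is the forkhead factor that specifies them. Of 25 genes tested, 10 fell and 0 rose, with a median log2 fold change of -1.13, beside -0.0055 for all genes. Foxi1 had 40.3, 41.6 and 43.5 normalized counts in the mutants, against 259, 158 and 218 in the controls. It fell by 2.28 ± 0.23 (adjusted p = 0.000586), and the mutant libraries differed little from each other. Slc4a9, the anion exchanger AE4, had 41.3, 49.5 and 60.2 normalized counts in the mutants, against 354, 430.1 and 428 in the controls (fell by 2.99 ± 0.22, adjusted p = 0.000148). Slc26a4, the chloride and bicarbonate exchanger pendrin, had 9.07, 7.92 and 10.04 normalized counts in the mutants, against 72.6, 95.2 and 102 in the controls (fell by 3.17 ± 0.30, adjusted p = 0.000334). Oxgr1, the alpha-ketoglutarate receptor of these cells, fell by 3.09 ± 0.42 (adjusted p = 0.00424). Gm12121, a noncoding gene beside Foxi1 on chromosome 11, fell by 2.90 ± 0.38 (adjusted p = 0.00343). All of these falls were stable. The count of 10 was 6 omitting control 2 or mutant 2 and 16 under the replicate block.

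Proton pump subunits of intercalated cells were among the falls. The V-ATPase pumps protons across the lysosomal membrane in all cells and across the surface membrane in intercalated cells, which use subunit forms of their own. Atp6v1b1, the B1 subunit, had 40.3, 52.5 and 75.9 normalized counts in the mutants, against 341, 339 and 367 in the controls (fell by 2.66 ± 0.24, adjusted p = 0.000269). Atp6v1g3 fell by 2.66 ± 0.35 (adjusted p = 0.00341) and Atp6v1c2 fell by 2.78 ± 0.42 (adjusted p = 0.00915, lost when control 2 or mutant 2 was omitted, with adjusted p reaching 0.0633). Atp6v0a4, also of intercalated cells, had a log2 fold change of -0.27 ± 0.17 (adjusted p = 0.709). All 16 subunits of the housekeeping pump had positive values with a median of 0.24, and 0 were called by limma and by limma-voom (7 at an unadjusted p under 0.05, and the count was 1 omitting control 3 and 4 under the replicate block). Atp6v1b2, the B2 form, had 3750.3, 3799.9 and 4137 normalized counts in the mutants, against 2867, 3032 and 3236 in the controls (0.36 ± 0.10, adjusted p = 0.143, and 0.0289 with the replicate block). Other members of the intercalated list that fell were the transcription factors Dmrt2 (-2.11 ± 0.34, lost when control 2 or mutant 2 was omitted, with adjusted p reaching 0.0716) and Hmx2 (-3.17 ± 0.64, lost whichever library was omitted except mutant 3, with adjusted p reaching 0.171), and the ammonia channel Rhbg (-2.24 ± 0.39, lost when control 2, control 3 or mutant 2 was omitted, with adjusted p reaching 0.109). Slc4a1, the exchanger of acid-secreting cells, had 28.2, 17.8 and 5.58 normalized counts in the mutants, against 156, 66.4 and 65.2 in the controls, with adjusted p = 0.0558, and 0.00405 with the replicate block.

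The promoter of Atp6v1b1 is shown because it alone, of 8 called intercalated genes with a window, held the forkhead core TGTTTA on either strand (RefSeq, GRCm38.p6, 250 bases before the start, chr6:83742767-83743016, plus strand).
Atp6v1b1: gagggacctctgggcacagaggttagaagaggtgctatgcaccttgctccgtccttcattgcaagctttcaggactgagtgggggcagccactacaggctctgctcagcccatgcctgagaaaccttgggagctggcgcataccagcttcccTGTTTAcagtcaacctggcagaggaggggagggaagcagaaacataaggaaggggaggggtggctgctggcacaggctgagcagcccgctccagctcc
Capitals mark the motif, which 12% of all promoter windows of this length hold. Among the 8, 1 held it, and Rhbg and Slc4a9 had no window.

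Principal cell genes, which serve water and sodium uptake in the collecting duct, also fell. Of 22 tested, 7 fell and 0 rose, with a median of -0.64. Aqp2, the vasopressin-regulated water channel, had 193, 133 and 247 normalized counts in the mutants, against 1167, 795 and 1729.8 in the controls. It fell by 2.65 ± 0.28 (adjusted p = 0.000686), with the highest mutant library below the lowest control. Aqp4, a water channel of the basolateral membrane, had 54.4, 30.7 and 27.9 normalized counts in the mutants, against 182, 182 and 113 in the controls (fell by 2.08 ± 0.30, adjusted p = 0.00762, lost when control 2 or mutant 2 was omitted, with adjusted p reaching 0.0535). Aqp3 fell by 1.72 ± 0.26 (lost when mutant 2 was omitted, with adjusted p at 0.0603) and the transcription factor Elf5 fell by 1.62 ± 0.24 (lost when control 2 or mutant 2 was omitted, with adjusted p reaching 0.0603). The sodium channel subunit Scnn1g fell by 1.03 ± 0.19 (adjusted p = 0.0247), with the call lost when control 1, control 2, control 3, mutant 2 or rapamycin 3 was omitted, with adjusted p reaching 0.141, while Scnn1a, another subunit, had -0.54 ± 0.29 (adjusted p = 0.61). Avpr2, the vasopressin receptor, fell by 2.07 ± 0.37 (lost when control 1, control 2, control 3 or mutant 2 was omitted, with adjusted p reaching 0.0979). Hsd11b2, which protects the mineralocorticoid receptor from glucocorticoids, had 0.17 ± 0.15 (adjusted p = 0.844). The count of 7 was 1 omitting mutant 2, 2 omitting control 2 and 12 under the replicate block. Of 23 genes of the ureteric bud tip and trunk, 4 fell (among them Wnt9b, Krt7 and Gata3) and 0 rose, and that count was 0 omitting control 2, mutant 2, rapamycin 1, rapamycin 2 or rapamycin 3 and 1 omitting control 3, mutant 1 or mutant 3. Gata3, a factor of the bud and collecting duct, fell by 1.08 ± 0.21 (adjusted p = 0.0301, lost whichever library was omitted except control 3 or mutant 1, with adjusted p reaching 0.165). The bud tip genes did not pass the test, with Ret at -0.23 ± 0.20 (adjusted p = 0.841) and Wnt11 at -0.24 ± 0.13 (adjusted p = 0.642).

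**Figure D4:**
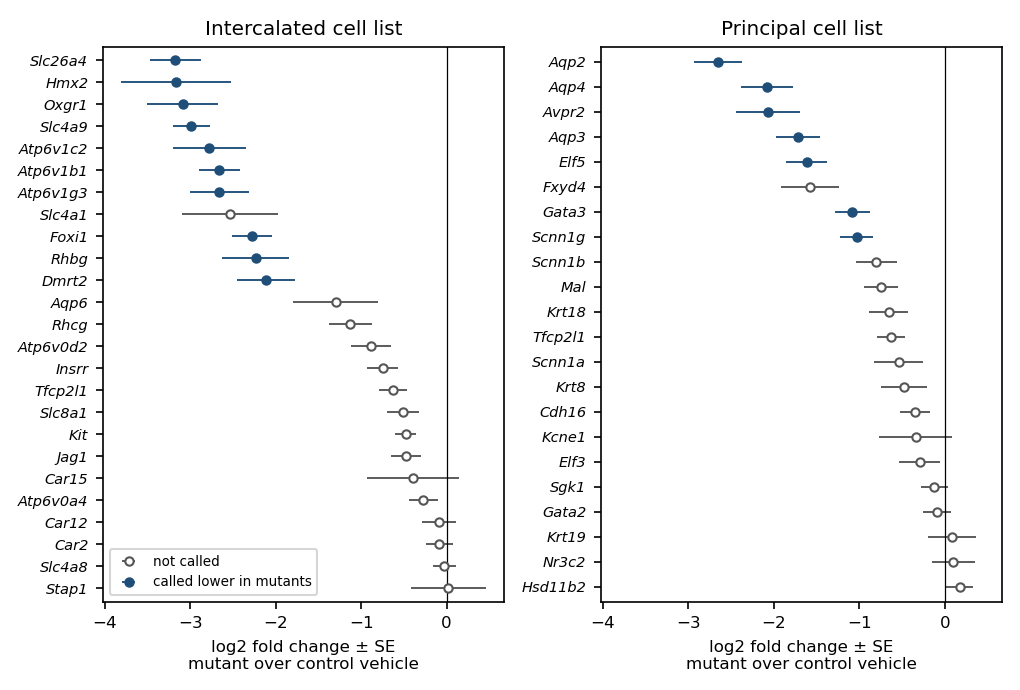
Log2 fold change of mutant vehicle over control vehicle libraries with its SE (horizontal axis) for the 25 intercalated cell genes on the left and the 22 principal cell genes on the right. Filled blue points were called lower in the mutants (10 and 7) and open points were not called. Most points in both panels lie below 0.

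Of 23 genes of the loop of Henle and the distal convolution, 2 fell and 0 rose, with a median of -0.16. Cldn19, a claudin of the thick ascending limb, fell by 1.27 ± 0.23 (adjusted p = 0.0236, lost when control 2, control 3 or mutant 2 was omitted, with adjusted p reaching 0.133), and Bsnd, the chloride channel subunit barttin, had -1.40 ± 0.30 (adjusted p = 0.0477, lost whichever library was omitted except mutant 3, with adjusted p reaching 0.178). Umod, the loop protein uromodulin, spanned 1194 to 3800.0 normalized counts in the mutants and 1129 to 3034 in the controls (0.02 ± 0.47, adjusted p = 0.996). Slc12a3, the sodium chloride cotransporter of the distal convoluted tubule, had 107, 53.5 and 119 normalized counts in the mutants, against 396, 413 and 200.3 in the controls. The groups did not overlap, yet the change of -1.85 ± 0.50 did not pass (adjusted p = 0.125). The count of 2 was 0 omitting control 2, control 3 or mutant 2, 1 omitting rapamycin 2 or rapamycin 3 and 6 under the replicate block.

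Proximal tubule genes moved in both directions. Gpx3, the extracellular glutathione peroxidase that this segment secretes, had 6705, 9501 and 10766 normalized counts in the mutants, against 1366, 1383 and 2020.1 in the controls. It rose by 2.50 ± 0.19 (adjusted p = 0.000148), with the lowest mutant library far above the highest control. Slc2a2, the glucose exporter GLUT2, had 1480.2, 1310.2 and 1238 normalized counts in the mutants, against 501, 511 and 387 in the controls (1.53 ± 0.16, adjusted p = 0.000686). Ass1, which makes argininosuccinate for arginine synthesis, had 1588, 1410.2 and 1535 normalized counts in the mutants, against 435, 555 and 569.6 in the controls (1.55 ± 0.13, adjusted p = 0.000209). Gatm, which starts creatine synthesis, rose by 1.04 ± 0.14 (adjusted p = 0.00343). These 4 rises were stable. The brush border protease Mep1b (meprin beta) fell by 2.45 ± 0.31 (adjusted p = 0.00314), with 25.2, 24.8 and 27.9 normalized counts in the mutants, against 86.9, 178 and 201 in the controls. Anpep, another brush border peptidase, fell by 0.72 ± 0.11 (adjusted p = 0.01, lost when control 2 or mutant 2 was omitted, with adjusted p reaching 0.064). Of 20 brush border genes, 2 fell and 0 rose, and the count was 1 omitting control 2 or mutant 2.

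Of 20 amino acid carriers of the proximal tubule, 3 rose and 1 fell, with a median of 0.44. Slc36a1 was the third that rose and Slc6a20b the one that fell. Slc7a8, a basolateral carrier of neutral amino acids, rose by 0.85 ± 0.13 (adjusted p = 0.01, lost when mutant 2 was omitted, with adjusted p at 0.0716), and Slc7a7, which exports cationic amino acids, by 1.06 ± 0.19 (adjusted p = 0.0217, lost when control 2, control 3, mutant 2 or mutant 3 was omitted, with adjusted p reaching 0.118). The count of 4 was 0 omitting mutant 2, 1 omitting control 2, control 3 or mutant 3, 2 omitting rapamycin 2 or rapamycin 3 and 12 under the replicate block. In glucose and lactate handling, 2 of 17 rose (Slc2a2, and the lactate carrier Slc5a12 at 1.42 ± 0.29, lost whichever library was omitted except control 2, with adjusted p reaching 0.207) and 0 fell, and the count was 1 omitting any library but control 2 and 6 under the replicate block. Phosphate and vitamin D genes gave 0 calls by limma and by limma-voom among 17 (6 at an unadjusted p under 0.05), and the count was 1 omitting control 3 and 3 under the replicate block. Slc34a1, the phosphate carrier that marks the segment, had -0.20 ± 0.21 (adjusted p = 0.884), and Hnf4a, its defining nuclear receptor, 0.22 ± 0.12 (adjusted p = 0.646).

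Other proximal tubule functions had 1 to 3 calls a list, where 1.42% of all genes tested were called. Of 19 organic ion carriers, Abcc2, an apical export pump, rose by 1.54 ± 0.30 (lost when control 2, control 3, mutant 2, mutant 3 or rapamycin 1 was omitted, with adjusted p reaching 0.141) and Slc22a19 fell by 1.11 ± 0.22 (lost whichever library was omitted except rapamycin 2, with adjusted p reaching 0.156). Of 23 genes of drug metabolism, the cytochrome Cyp2j5 rose by 1.28 ± 0.26 (lost whichever library was omitted except mutant 1, with adjusted p reaching 0.22) and the flavin monooxygenase Fmo2 by 1.61 ± 0.25 (lost when mutant 2 was omitted, with adjusted p at 0.0692), while the glutathione transferase Gsta3 fell by 1.04 ± 0.21 (lost whichever library was omitted except control 1, with adjusted p reaching 0.166). Among 15 endocytic genes, Ctns, the lysosomal cystine exporter, was the sole rise (0.63 ± 0.11, lost when control 2, control 3, mutant 2, mutant 3 or rapamycin 3 was omitted, with adjusted p reaching 0.114), and among 16 transcription factors Maf was (0.71 ± 0.15, lost whichever library was omitted except control 1, with adjusted p reaching 0.229). Omitting mutant 1 gave 2 endocytic calls, and the replicate block gave 2 endocytic and 4 organic ion calls. Among 13 arginine and creatine genes, 2 rose (Ass1 and Gatm), and the count was 5 under the replicate block.

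Steroid and androgen genes held the largest fitted fall, Hsd3b6. Of 27 tested, 2 rose and 4 fell, with a median of -0.07. Hsd3b6, a 3-beta-hydroxysteroid dehydrogenase, had 1 raw count in the mutants and 99 in the controls, a control over mutant ratio of 92.2 (exact 95% counting interval 16.2 to 3679.6, counting error only). It had 1.01, 0 and 0 normalized counts in the mutants, against 37.4, 25.1 and 34 in the controls, so the groups did not overlap. The fall was called in all 9 fits that left out 1 library (adjusted p = 0.000334). Hsd17b2, which inactivates estradiol and testosterone, rose by 2.62 ± 0.47 (adjusted p = 0.0215, lost when control 3, mutant 2 or mutant 3 was omitted, with adjusted p reaching 0.114). Akr1c18, which degrades progesterone, fell by 1.89 ± 0.34 (adjusted p = 0.0215, lost when control 2, control 3, mutant 2 or mutant 3 was omitted, with adjusted p reaching 0.0987). Kap, an androgen-induced protein of the mouse proximal tubule, had 1.01, 0.99 and 5.58 normalized counts in the mutants, against 9.9, 147 and 100.1 in the controls (fell by 4.20 ± 0.89, lost whichever library was omitted except control 1, with adjusted p reaching 0.223). The lowest control of Kap was control 1. Serpina6, which carries corticosteroids in blood, fell by 3.35 ± 0.62 (lost when control 2, control 3 or mutant 2 was omitted, with adjusted p reaching 0.134), and the other rise was Srd5a2. The count of 6 was 2 omitting control 3 or mutant 2 and 3 omitting control 2 or mutant 3. Control 1 also had 14 Y-linked counts, and the part of embryo sex in these genes was not tested. Without control 1 the count was 6.

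Lysosomal genes had mostly small positive changes. Of 52 tested, 49 had a positive log2 fold change with a median of 0.32, and 4 rose and 0 fell past the test. Neu1, the lysosomal sialidase, had 1573, 1764 and 2232 normalized counts in the mutants, against 917, 958 and 1165 in the controls (0.87 ± 0.15, adjusted p = 0.0201, lost when control 2, mutant 2 or mutant 3 was omitted, with adjusted p reaching 0.106). Other rises were those of Hexa, a hexosaminidase subunit (0.79 ± 0.15, lost when control 2, mutant 2, mutant 3, rapamycin 1 or rapamycin 3 was omitted, with adjusted p reaching 0.133) and Tpp1 (0.63 ± 0.11, lost when control 2, control 3, mutant 2, mutant 3 or rapamycin 3 was omitted, with adjusted p reaching 0.114). Lamp1 had 0.46 ± 0.11 (adjusted p = 0.0753, and 0.0137 with the replicate block). The count of 4 was 0 omitting control 2, mutant 2 or mutant 3, 1 omitting rapamycin 3, 8 omitting mutant 1 and 16 under the replicate block. With a block over all 9 libraries it was 7. Macrophages are rich in lysosomes, and 17 of 20 leukocyte genes also had positive values with a median of 0.50, although 0 were called by limma and by limma-voom (6 at an unadjusted p under 0.05, and the count was 1 omitting control 1 and 5 omitting mutant 1). The summed leukocyte genes came to 27255, 55889.8 and 43659 normalized counts in the mutants and 31853, 23486 and 32903 in the controls, with overlap, and their part in the lysosomal values was not tested. S100a8 and S100a9, which mark neutrophils, had -1.68 ± 0.80 (adjusted p = 0.551) and -1.69 ± 0.73 (adjusted p = 0.479).

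Some genes that report nutrients to mTORC1 rose. Of 27 Rag, folliculin and nutrient sensor genes, 3 rose and 0 fell, with a median of 0.28. Flcn, encoding folliculin, which activates the Rag GTPases, had 1786, 1711 and 1614 normalized counts in the mutants, against 1098, 920.3 and 1021 in the controls. It rose by 0.75 ± 0.12 (adjusted p = 0.0094, lost when control 2 or mutant 2 was omitted, with adjusted p reaching 0.0683). Castor2, an arginine sensor family member, rose by 0.58 ± 0.11 (adjusted p = 0.0257, lost whichever library was omitted except mutant 1, rapamycin 1 or rapamycin 2, with adjusted p reaching 0.111), and Rragd, a Rag GTPase, by 0.70 ± 0.15 (adjusted p = 0.0451, lost whichever library was omitted except rapamycin 1, with adjusted p reaching 0.129). Gpnmb, a melanosomal and lysosomal glycoprotein, had 51.4, 95.1 and 109 normalized counts in the mutants, against 9.9, 13.5 and 23.9 in the controls (adjusted p = 0.0507, and 0.015 with the replicate block). The count of 3 was 0 omitting control 2 or mutant 2, 1 omitting control 1, control 3, mutant 3 or rapamycin 3 and 9 under the replicate block. None of the 6 called lysosomal and nutrient sensor genes with a promoter window held CACGTG, the core of the element bound by TFEB and its relatives, in the 250 bases before its start, and 6.02% of all windows held it. The core TSC and mTOR genes gave 0 calls by limma and by limma-voom among 27 (2 at an unadjusted p under 0.05), with Tsc2 at 0.13 ± 0.12 (adjusted p = 0.848) and Eif4ebp1, a target of the kinase, at 0.31 ± 0.20 (adjusted p = 0.714).

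The response to amino acid shortage, driven by the transcription factor ATF4, had 3 of 38 genes that rose and 0 that fell, with a median of 0.20 and 32 members above 0. Slc7a3, a carrier of cationic amino acids, had 183, 183 and 296 normalized counts in the mutants, against 38.5, 53.9 and 65.2 in the controls (2.04 ± 0.26, adjusted p = 0.00316), a stable call. Asns, asparagine synthetase, had 846, 739 and 1017 normalized counts in the mutants, against 344, 352 and 498 in the controls (1.13 ± 0.17, adjusted p = 0.00949, lost when control 2 was omitted, with adjusted p at 0.059). Chac1, which degrades glutathione, had 38.3, 94.1 and 266 normalized counts in the mutants, against 8.8, 13.5 and 18.4 in the controls (2.83 ± 0.56, adjusted p = 0.0356), and its call was lost whichever library was omitted except mutant 1, with adjusted p reaching 0.145. Trib3, an inhibitor of ATF4, had 31.2, 93.1 and 279 normalized counts in the mutants, against 18.7, 21.5 and 23.9 in the controls (adjusted p = 0.149, and 0.0241 with the replicate block). The count of 3 was 1 omitting control 2, 5 omitting mutant 1 and 13 under the replicate block.

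The promoters of Asns and Chac1 are shown because both of the called ATF4 genes with a window held TGATGNAA on either strand, the core of the amino acid response element (RefSeq, GRCm38.p6, 250 bases before the start, Asns at chr6:7693210-7693459, minus strand, Chac1 at chr2:119350992-119351241, plus strand).
Asns: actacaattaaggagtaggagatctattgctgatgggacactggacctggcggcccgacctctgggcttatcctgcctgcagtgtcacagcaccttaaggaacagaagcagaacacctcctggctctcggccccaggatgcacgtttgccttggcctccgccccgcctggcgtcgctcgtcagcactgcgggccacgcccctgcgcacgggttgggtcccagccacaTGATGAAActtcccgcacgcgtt
Chac1: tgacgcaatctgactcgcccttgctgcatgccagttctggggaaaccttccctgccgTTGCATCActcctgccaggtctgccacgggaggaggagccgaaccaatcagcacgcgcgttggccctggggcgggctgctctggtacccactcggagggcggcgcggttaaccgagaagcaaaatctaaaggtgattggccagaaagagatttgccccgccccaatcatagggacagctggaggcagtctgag
Capitals mark the motif, found in 3.45% of all promoter windows of this length. Slc7a3 had no window. The list was written for the ATF4 response and its uncalled members were not counted apart, so these matches are a description only.

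Among genes of tubule injury, 3 of 32 rose and 1 fell, with a median of 0.09. Spp1, encoding osteopontin, had 841, 670.4 and 1139 normalized counts in the mutants, against 222, 256 and 247 in the controls (1.83 ± 0.22, adjusted p = 0.00224), a stable call. Cd44, the hyaluronan receptor, rose by 0.98 ± 0.18 (adjusted p = 0.0215, lost when control 2, control 3 or mutant 2 was omitted, with adjusted p reaching 0.115). Lcn2, a marker of acute tubule damage, did not pass the test. It had 292, 229 and 127 normalized counts in the mutants, against 593, 316 and 598 in the controls (-1.24 ± 0.40, adjusted p = 0.24). Krt7, a keratin of ducts, was the member that fell (-1.09 ± 0.22, lost whichever library was omitted except control 1 or mutant 3, with adjusted p reaching 0.182). The count of 4 was 1 omitting control 2 or mutant 2, 2 omitting control 3 or rapamycin 3 and 8 under the replicate block. Il33, an alarm cytokine of epithelium and stroma, had 2040.4, 3879 and 3331 normalized counts in the mutants, against 898, 867 and 748 in the controls (1.83 ± 0.23, adjusted p = 0.00232), also stable. Of 26 p53 targets, 2 rose and 0 fell, with a median of 0.21, where 1.42% of all genes tested were called. They were Pmaip1, the apoptosis gene Noxa (1.50 ± 0.27, adjusted p = 0.0213, lost when control 2, control 3, mutant 2 or mutant 3 was omitted, with adjusted p reaching 0.112), and Cdkn1a, the cell cycle inhibitor p21 (0.93 ± 0.17, adjusted p = 0.0242, lost when control 1, control 2, mutant 2, mutant 3 or rapamycin 3 was omitted, with adjusted p reaching 0.125). The count of 2 was 0 omitting control 2, mutant 2 or mutant 3, 1 omitting control 3 or rapamycin 3 and 7 under the replicate block.

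Proliferation genes leaned lower without passing the test. Of all 19656 genes tested, 1990 had an unadjusted p under 0.05 by limma. All 37 mitosis genes were lower by fitted value (median log2 fold change -0.45), and 0 were called by limma and by limma-voom (29 at an unadjusted p under 0.05). Kif11, a spindle motor, had the smallest p, with 2475, 1911 and 1843 normalized counts in the mutants, against 3092, 3067 and 2915 in the controls (-0.55 ± 0.12, adjusted p = 0.0574, and 0.00758 with the replicate block). The count of 0 was 8 omitting mutant 1, 21 under the replicate block and 6 with a block over all 9 libraries. All 39 DNA replication genes were negative as well (median -0.28), with 0 called by either tool (9 at an unadjusted p under 0.05). Interferon genes leaned the other way. All 37 had positive values, with a median of 0.49, and 0 were called by limma and by limma-voom (15 at an unadjusted p under 0.05). Their count was 2 omitting control 1, 4 under the replicate block and 0 with a block over all 9 libraries. Genes of one process vary together from library to library, so a list that points one way is not made of independent genes.

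Over all 19656 genes tested, 1990 had an unadjusted p under 0.05 by limma. Several groups held no called gene by limma and by limma-voom. These were 0 of 18 (1 at an unadjusted p under 0.05) for podocytes, 0 of 23 (3 at an unadjusted p under 0.05) for stroma and mural cells, 0 of 17 (1 at an unadjusted p under 0.05) for endothelium and 0 of 7 (1 at an unadjusted p under 0.05) for red cells. Their median log2 fold changes were -0.05, -0.03, 0.02 and -0.54 in that order. Genes of cystic kidney disease gave 0 of 37 (2 at an unadjusted p under 0.05), sterol and fatty acid synthesis 0 of 32 (2 at an unadjusted p under 0.05) and Notch signalling 0 of 21 (6 at an unadjusted p under 0.05). Ribosomal proteins gave 0 of 84 (2 at an unadjusted p under 0.05) with a median of -0.25, and nuclear oxidative phosphorylation genes 0 of 77 (0 at an unadjusted p under 0.05) with a median of -0.13. With the replicate block, which called 867 of all 19656 genes, podocyte, stroma, red cell, sterol and ribosomal protein lists each had 1 call. The Notch list had 3 with that block, and the podocyte, red cell and Notch lists each had 1 call without mutant 1.

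Metabolic and stress lists held at most 1 call each, where 1.42% of all genes tested were called. Ndrg1 rose among 32 glycolysis and hypoxia genes (1.19 ± 0.18, adjusted p = 0.01, lost when control 2 was omitted, with adjusted p at 0.0575). Hspa4l, a chaperone, rose among 22 heat shock genes (0.94 ± 0.17, adjusted p = 0.0217, lost when control 2 or mutant 2 was omitted, with adjusted p reaching 0.132). Gpx3 was the call among 26 oxidative stress genes, Serpina6 that among 17 glucocorticoid targets, and Col8a1, a short-chain collagen, fell among 39 matrix genes (-1.53 ± 0.28, lost when control 2, control 3, mutant 1, mutant 2 or mutant 3 was omitted, with adjusted p reaching 0.126). With the replicate block the counts were 2 for glycolysis and hypoxia, 2 for heat shock, 2 for glucocorticoid targets and 6 for matrix. By limma or limma-voom, calls were 0 of 28 (5 at an unadjusted p under 0.05) for nucleotide synthesis, 0 of 38 (1 at an unadjusted p under 0.05) for ribosome biogenesis, 0 of 29 (7 at an unadjusted p under 0.05) for immediate early genes and 0 of 30 (8 at an unadjusted p under 0.05) for insulin and IGF signalling. The count of 0 was 1 omitting control 1 and 1 under the replicate block for ribosome biogenesis, 2 omitting control 1 and 3 under the replicate block for immediate early genes and 1 omitting control 1 or rapamycin 2 and 4 under the replicate block for insulin and IGF signalling. Of 17 genes that pattern the distal nephron, 2 fell, Gata3 and Tfap2a (-1.14 ± 0.20, lost when control 2, control 3, mutant 2 or mutant 3 was omitted, with adjusted p reaching 0.108), and the count was 0 omitting control 2, mutant 2 or mutant 3 and 1 omitting rapamycin 1, rapamycin 2 or rapamycin 3.

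**Figure D5:**
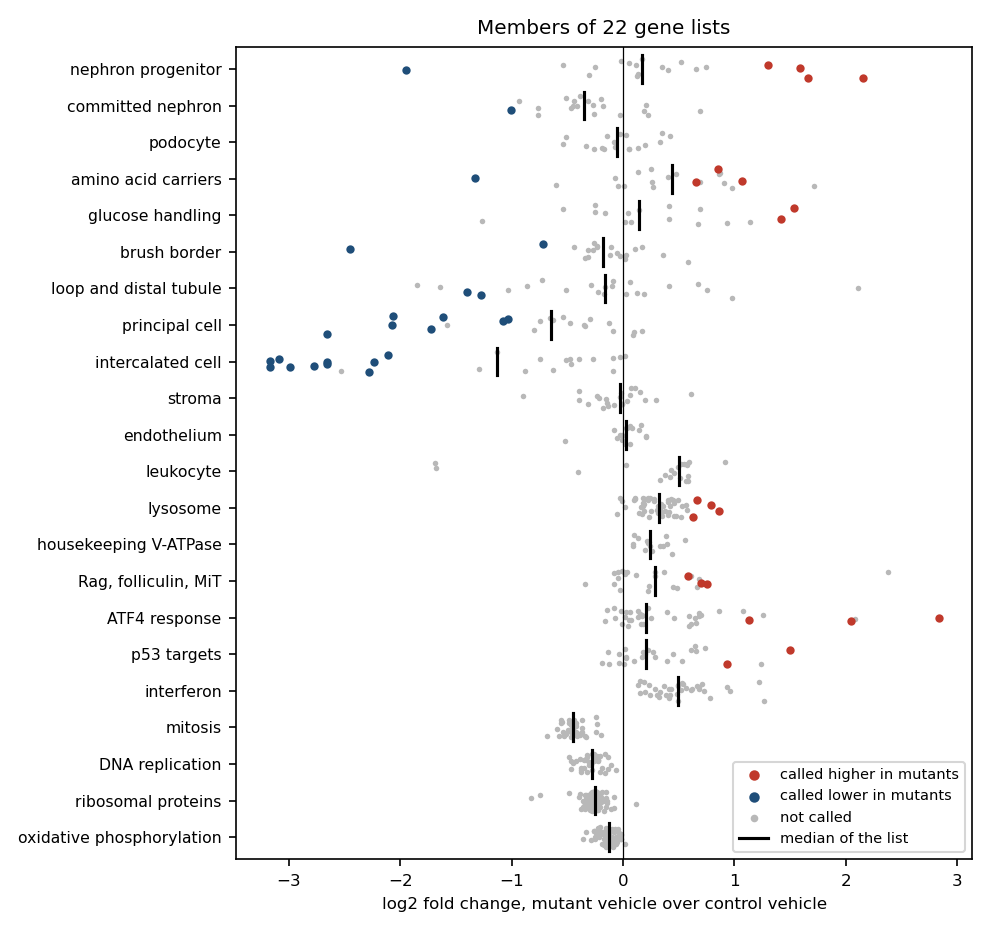
Log2 fold change of mutant vehicle over control vehicle libraries (horizontal axis) for each member of 22 gene lists, 1 point a gene. Red points were called higher in the mutants, blue points lower and grey points were not called, and the black bar is the median of the list. Among these 22 lists, the intercalated and then the principal cell list reach farthest to the left, while the mitosis and DNA replication lists lie wholly below 0 and the interferon list wholly above it.

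The mutant rapamycin libraries share the mutant genotype, and any comparison with them would share libraries with the one above, so their values are given side by side only. Six3 had 1074, 936 and 889.9 normalized counts in mutants under rapamycin, 879.6, 913 and 875 under vehicle and 2.2, 0.898 and 2.76 in control kidneys. Foxi1 had 169, 243 and 245 in mutants under rapamycin, 40.3, 41.6 and 43.5 under vehicle and 259, 158 and 218 in control kidneys. Aqp2 had 956, 1155 and 1174 in mutants under rapamycin, 193, 133 and 247 in mutants under vehicle and 1167, 795 and 1729.8 in control kidneys. For Atp6v1b1 every rapamycin library lay between the vehicle mutants and the controls, while Slc4a1 under rapamycin overlapped both groups. Atp6v1b1 had 186, 236 and 269.8 in mutants under rapamycin, 40.3, 52.5 and 75.9 in mutants under vehicle and 341, 339 and 367 in control kidneys. Slc4a1 had 65.8, 32 and 27.7 in mutants under rapamycin, 28.2, 17.8 and 5.58 in mutants under vehicle and 156, 66.4 and 65.2 in control kidneys. The summed intercalated list came to 14397, 18596 and 17677 in mutants under rapamycin, 16131, 13893 and 14771 in mutants under vehicle and 21324, 23754 and 19657 in control kidneys, so every rapamycin library lay below every control. A sum follows the most abundant members of its list, and Foxi1, Atp6v1b1 and Slc4a1 made up little of this one. The summed principal list came to 18098, 22040.1 and 21155 in mutants under rapamycin, 12779.6, 11501 and 16340.1 in mutants under vehicle and 18553, 19583 and 21042 in control kidneys, and its rapamycin libraries overlapped the controls.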

How the data were processed

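Bulk RNA-seq libraries of sorted E18.5 mouse kidney cells were deposited as one table of 54838 genes. It holds raw counts and values that the authors deposited as normalized counts, with gene coordinates on GRCm38. The submitters' processing notes list DESeq2 1.22.1, HTSeq 0.6.0, TopHat2 2.1.1 and cutadapt 1.18 without their roles. The labels name a stranded kit, and whether the counting used it is not given in the sources used here. In 6252 genes the deposited count columns hold a mark in place of a number. The columns were therefore not classed as count columns, and edgeR and DESeq2 were not run here, although all genes tested have whole counts. The authors' own fold changes and p-values were not used.

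Raw counts divided by the authors' size factors were tested as log2(value + 1) in limma 3.58.1 (statmod 1.5.0, R 4.3.3), with trended, robust variance, over 9 libraries in 3 groups, for genes averaging 5 or more. The added 1 makes fold changes of low genes too small. P-values were adjusted by Benjamini-Hochberg over the 19656 genes tested, with a threshold of 0.05, and 28930 further genes with counts fell below the minimum. Deviations of same-numbered mutant and control libraries from their group means correlated at 0.428, 0.137 and 0.445, each above any differently numbered pair of these groups. The rapamycin libraries gave -0.338 to 0.218 with the same number and up to 0.471 with another. The numbers were taken to pair the vehicle libraries alone, as a hint from the data, and a replicate block in the vehicle groups was added after seeing the data. Members and gene lists were chosen with earlier results of these data known. Genes named singly were the 25 largest stable rises and 11 stable falls, plus members of the lists and loci. Those rises and falls had to show no overlap between the groups, and predicted and sex-linked genes were left out. A few of these genes are not reported here. Alternatives changed the libraries, scaling, pseudocount, minimum, test and block. Promoters came from RefSeq (GRCm38.p6) by gene symbol.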

Additional observations from a re-analysis of the deposited data

How the results depend on the processing

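No named call changed direction under the alternatives run. Using only the 6 vehicle libraries gave 99 calls, 77 higher and 22 lower, of which 98 were among the 279. The replicate block in the vehicle groups, chosen after seeing the data, gave 867 calls, 560 higher and 307 lower, and all 279 were among them. The replicate block over all 9 libraries gave 405 calls, 272 higher and 133 lower. Leaving out 1 library gave 81 to 337 calls, 66 to 259 higher and 15 to 84 lower. TMM scaling gave 281 calls, limma-voom 241, a minimum mean of 20 gave 277, no minimum 282, a pseudocount of 0.5 gave 264 and one of 5 gave 289. Without control 1 and rapamycin 2, which had the most reads on ribosomal RNA genes, 237 were called. Of 137 called genes chosen by size, list or run, 67 lost their calls with only the 6 vehicle libraries, 14 with limma-voom and 21 to 76 on leaving out 1 library. Among the 25 rises and 11 falls chosen by size, Gfra3 was the one lost with only the 6 vehicle libraries (adjusted p = 0.0533). With those 6 libraries the intercalated list had 7 calls, the principal list 3, the progenitor list 5, and the lysosome, nutrient sensor, amino acid carrier, Wnt, committed nephron and loop lists 0. That setting estimates the spread from fewer libraries, and the cause of the other losses was not tested. Counts for gene lists moved by more than 1.5 times in 253 list and setting pairs and stayed within that in 849. The edgeR and DESeq2 alternatives were not run because the count columns hold marks that are not numbers. At 3 libraries a group, low-count genes need large changes to pass.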

Other observations

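Stable changes also occurred in genes outside the groups above, each called in all 9 fits that left out 1 library. Chrna4, a subunit of the neuronal nicotinic acetylcholine receptor, had 778, 541 and 524 normalized counts in the mutants, against 182, 179.6 and 167 in the controls (log2 fold change 1.77 ± 0.18, limma adjusted p = 0.000532). Crispld1, a secreted cysteine-rich protein, had 628, 654 and 579 normalized counts in the mutants, against 145, 158 and 132 in the controls (2.09 ± 0.14, adjusted p = 8.20e-05). Nell1, a secreted growth factor of bone, rose by 1.69 ± 0.20, and the metalloprotease Adamts17 by 1.11 ± 0.15. Kcnj15, an inward rectifier potassium channel, rose by 1.58 ± 0.20. Card14, a scaffold of NF-kappa-B signalling, rose by 2.46 ± 0.33. Galnt15, an enzyme that starts mucin-type glycosylation, was lower in every mutant library, with 35.3, 32.7 and 34.6 normalized counts in the mutants, against 114, 143 and 123 in the controls (fell by 1.86 ± 0.25, adjusted p = 0.00424).

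Some called genes were neighbours. With a gap of at most 100 kb between called neighbours, 41 called genes formed 16 runs. Beside the Six2 and HoxC runs, these included C2cd4a and C2cd4b on chromosome 9 (both higher), Dpp7 and Uap1l1 on chromosome 2 (both higher) and Akr1c18 and Akr1c19 on chromosome 13 (both lower). In 5 of the 16 runs a gene that was higher lay beside one that was lower, as with Rcan2 and Enpp5 on chromosome 17. Akr1c18 and Akr1c19 are close paralogs, so reads may be split between them.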
